A study of Mus musculus with 16 samples.

Results

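Ncl, Npm1, Fbl, Nop56, Nop58, Odc1, Cad, Ldha, Cdk4 and Eif4e are textbook examples of genes that Myc switches on when cells grow. These 10 genes were chosen by name, with earlier results of these data known, from 26180 gene symbols with a curated RefSeq transcript in GRCm38. Their promoters were examined in LIF-ESCs and Myc-ESCs, which are the same R1 mouse ESCs under different culture conditions. Both cultures carried a Myc protein fused to the hormone-binding part of the oestrogen receptor (MycER), which 4-hydroxytamoxifen (OHT) activates, and both were grown without feeder cells. LIF-ESCs received LIF at 100 units per ml and no OHT, whereas Myc-ESCs received 50 nM OHT and no LIF. MycER cells are clonal, the T58A allele is named for the original line, and the clone behind the libraries is not given in the sources used here. H3K4me3, H3K27me3 and the PRC2 subunit Suz12 were mapped by ChIP-sequencing in 16 libraries, of which 4 were inputs and 2 stood behind each culture and antibody. These gave 6 peak lists, 1 per culture and antibody.

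No list exists per library, so none of the differences between the cultures below could be set against replicate error, and no test was run. The lists hold no read counts, and the depth behind them is unknown. For LIF-ESCs they held 32469 H3K4me3, 11305 Suz12 and 3120 H3K27me3 peaks, and for Myc-ESCs 30345, 13907 and 16717. Of 6 defining genes of ESCs (Pou5f1, Sox2, Nanog, Zfp42, Esrrb and Klf4), all 6 had H3K4me3 at the start site in both cultures, and Suz12 stood at 1 of them (Esrrb) in LIF-ESCs and at 2 (Esrrb and Klf4) in Myc-ESCs. Of 12 genes of endoderm, neural, mesoderm, trophoblast and fibroblast cells, 11 had H3K4me3 in LIF-ESCs and all 12 did in Myc-ESCs. Suz12 stood at 9 and 11 of these 12, and H3K27me3 at 5 and 8. Gata6, T, Mixl1 and Gata3 had Suz12 but no H3K27me3 peak in LIF-ESCs. A gene without a peak in the LIF-ESC H3K27me3 list can thus still carry Suz12. Among the ESC genes H3K27me3 was found at Esrrb alone, in Myc-ESCs.

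Myc binds DNA as a dimer with Max, most tightly at the E-box CACGTG, and its best known targets serve the growth of the cell. They build ribosomes, make polyamines and nucleotides, run glycolysis, start translation and bring cells into S phase. H3K4me3 marks the start of transcribed genes, and at strongly transcribed genes it can reach far into the gene. PRC2, which contains Suz12, writes H3K27me3 at silent developmental genes in ESCs, often together with H3K4me3.

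The E-box was searched in the reference genome, since Myc binding itself was not analysed here. The motif is its own reverse complement, so 1 search covers both strands. All 10 growth genes held CACGTG within 2500 bp of the start site, and all 10 held it within 1000 bp. Among the 15958 genes with H3K4me3 at the start site in both cultures, 54.4% had a match within 2500 bp and 32.8% within 1000 bp. Of the 10 genes, 8 had at least 2 matches in the wider window, compared with 19.9% of those 15958 genes. The 10 windows held 27 matches in all, a mean of 2.7 per gene against 0.83 in genes with H3K4me3 in both cultures. A match is a description of the sequence and does not show that Myc was bound there. Because the 10 genes were chosen as known Myc-activated genes, their E-box counts are not independent of that choice.

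The matches lay on either side of the start site, 9 upstream and 18 downstream, and 14 of them fell into intron 1 of 6 genes. In the RefSeq promoter table, which spans 250 bp before to 50 bp after each start, 8 of the 10 genes have an entry. Of those 8 genes, 3 had the motif in this short stretch (Cdk4, Ldha and Eif4e, the last at its downstream start site), and over the 27025 genes of the table the share was 8.09%. Only 12327 of these genes had H3K4me3 in both cultures, so this share is not a like comparison with the H3K4me3 genes used above. Fbl, which has no entry, held a match at -13 bp. Among the members, Cdk4 held the most matches in the 250 bases before the start site. Those bases are given below for Cdk4 and Ldha, in GRCm38 and in the direction of transcription, with the E-boxes in capitals.
Cdk4, chr10:127063285-127063534, plus strand: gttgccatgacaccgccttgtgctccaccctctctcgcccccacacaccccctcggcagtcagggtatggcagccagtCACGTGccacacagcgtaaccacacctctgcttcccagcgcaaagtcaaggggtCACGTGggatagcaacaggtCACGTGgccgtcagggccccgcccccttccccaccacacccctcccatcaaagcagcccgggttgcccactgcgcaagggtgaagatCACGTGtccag
Ldha, chr7:46845554-46845803, plus strand: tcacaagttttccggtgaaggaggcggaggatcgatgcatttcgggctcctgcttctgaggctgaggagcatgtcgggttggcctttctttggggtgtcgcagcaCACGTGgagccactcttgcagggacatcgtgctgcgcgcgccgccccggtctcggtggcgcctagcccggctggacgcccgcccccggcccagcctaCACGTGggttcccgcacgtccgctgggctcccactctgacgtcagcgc

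Cdk4 held 4 matches, at -172, -118, -98 and -11 bp, counted to the first base of the motif. Ldha had matches at -145 and -48 bp and another farther out at -1493 bp. In the other members the motif lay mostly inside the gene. The next sequences show it there with 12 bases on either side, in the direction of transcription and with the E-box in capitals.
Ncl, intron 1, chr1:86358818-86358847, minus strand: cgcctccccgcgCACGTGctctggtgcgcg
Ncl, intron 1, chr1:86358794-86358823, minus strand: tgcgcggcccgcCACGTGctctgcggagcc
Ncl, intron 1, chr1:86358773-86358802, minus strand: tgcggagccccgCACGTGtcgcgcgacccg
Ncl, intron 1, chr1:86358652-86358681, minus strand: gaccgggatggaCACGTGgtggacccctga
Ncl, intron 1, chr1:86358615-86358644, minus strand: gcgtggtgactcCACGTGgtggggctggaa
Odc1, intron 1, chr12:17545186-17545215, plus strand: gggatgtgcggcCACGTGtcgcgaggcccg
Odc1, intron 1, chr12:17545226-17545255, plus strand: gccggcaggggaCACGTGgcccgggaccgg
Nop58, intron 1, chr1:59685371-59685400, plus strand: ggttcaggtgaaCACGTGgcttctccgaat
Cad, exon 1, chr5:31054845-31054874, plus strand: cgcgcagcgagcCACGTGgaccaactccgg
Eif4e, intron 1, chr3:138527028-138527057, plus strand: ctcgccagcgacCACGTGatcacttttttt
Eif4e, intron 1, chr3:138527192-138527221, plus strand: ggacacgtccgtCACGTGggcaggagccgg

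Ncl had the most matches of all members, 5 in intron 1, at 620, 644, 665, 786 and 823 bp after the start site. Odc1 had a pair at 325 and 365 bp, Nop58 a single match at 377 bp and Cad a single match at 77 bp. Npm1 had matches at 818, 829 and 1085 bp and Fbl at -13 and 618 bp. Nop56 had 4, at -529, 231, 390 and 1444 bp, of which the second lay in exon 2. In Eif4e they lay at 849 and 1013 bp from the upstream start site, which is 228 and 64 bp before the downstream one.

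All 10 growth genes had an H3K4me3 peak at the start site in both cultures, which held for 62.2% of all genes in LIF-ESCs and for 63.3% in Myc-ESCs. Peaks that shared at least 1 bp with the window from 2500 bp before to 2500 bp after any start site were assigned to the gene, and the longest of them gave its length. In every member this peak covered the start site and all E-boxes counted above. The peaks carried the score 3100 in both cultures, a value that many of the strongest peaks share. A peak with a score of at least 3100 stood at 34.9% of the genes with H3K4me3 in LIF-ESCs and at 28.1% of those in Myc-ESCs.

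H3K4me3 peaks of the growth genes were long in both cultures. Their median length was 7492.5 bp under LIF and 6326.5 bp under OHT, against 3376 and 3553 bp over all genes with a peak. In LIF-ESCs 9 of the 10 lay above the median of all genes, with Cad as the exception, and in Myc-ESCs all 10 did. The lengths ran from 3219 bp (Cad) to 14101 bp (Npm1) in LIF-ESCs and from 4392 bp (Cdk4) to 11495 bp (Npm1) in Myc-ESCs. Among genes with a peak, 9 members were in the longest 20% of either culture, and 4 were in the longest 5% in either culture.

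Between the cultures, most growth genes had the shorter peak in Myc-ESCs. Their peaks were shorter in Myc-ESCs in 7 of 10 cases, while 38.1% of the 15958 genes with a peak in both cultures had a shorter one in Myc-ESCs. The median length ratio of Myc-ESCs over LIF-ESCs was 0.888 for the members and 1.04 for all genes, whose interquartile range was 0.946 to 1.16. This direction depends on counting the whole peak. When only the bases within the 5001 bp around the start site were counted, the members' median ratio was 1.06 and 7 of 10 were longer in Myc-ESCs, because that window leaves out the far ends of the peaks. Of the other members only Nop56 was shorter, while Ncl and Ldha filled the window in both cultures and so could not differ. All genes had a median ratio of 1.04 under the same setting, and 31.8% of them were shorter in Myc-ESCs.

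**Figure D1:**
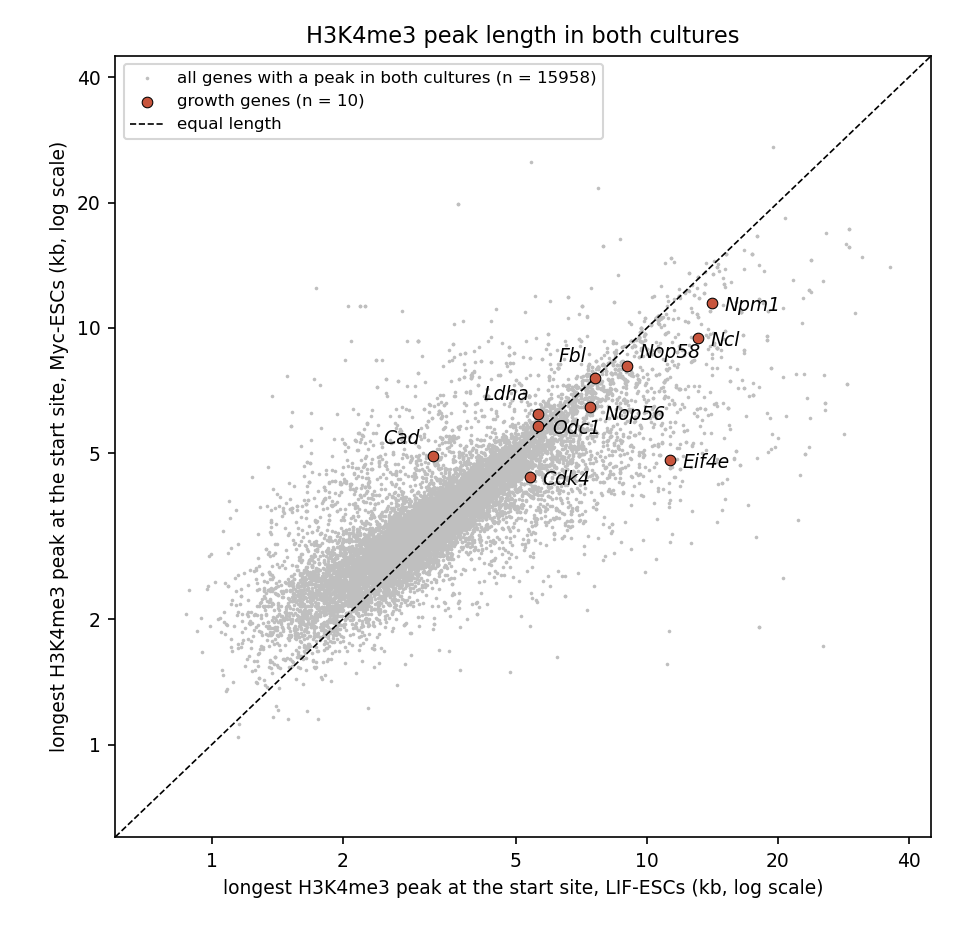
Length of the longest H3K4me3 peak at the start site in LIF-ESCs (horizontal, kb, log scale) and Myc-ESCs (vertical, kb, log scale) for the 10 growth genes (red) and all 15958 genes with a peak in both cultures (grey). Cad, Ldha and Odc1 lie above the line of equal length, Fbl lies on it, and Eif4e, at 11318 bp in LIF-ESCs compared with 4831 bp in Myc-ESCs, lies farthest below it.

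The first group of members serves the nucleolus, where rRNA is made and processed. Ncl (nucleolin, gene 17975, chr1:86344719-86359455, minus strand) encodes an abundant nucleolar RNA-binding protein. Its peak spanned 13098 bp in LIF-ESCs against 9479 bp in Myc-ESCs, a ratio of 0.724. It was longer than at 98.7% of genes in LIF-ESCs and at 98.6% in Myc-ESCs, and so among the longest in both cultures. The far edge lay in exon 14, the last one, in LIF-ESCs and in intron 9 in Myc-ESCs. With it, the snoRNA Snora75 in intron 12 was inside the LIF-ESC peak but outside that of Myc-ESCs, whereas Snord82 in intron 5 was inside both. On the other side, both peaks also covered the start of the divergent lncRNA C130036L24Rik, 129 bp upstream of Ncl.

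Npm1 (nucleophosmin, gene 18148, chr11:33152498-33163206, minus strand), a nucleolar chaperone of ribosome assembly, had the longest peak of the members. It measured 14101 bp in LIF-ESCs compared with 11495 bp in Myc-ESCs, the 129th and the 75th longest peak of their lists. In LIF-ESCs the peak covered all of the gene and ended 1800 bp beyond it. In Myc-ESCs it ended in intron 10 and covered 90.5% of the gene.

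Fbl, Nop56 and Nop58 encode proteins of the box C/D snoRNPs, which methylate rRNA, with fibrillarin (Fbl) as the methyltransferase. The Fbl peak (gene 14113, chr7:28169748-28179269, plus strand) had nearly the same length in both cultures, 7588 and 7570 bp, and ended in intron 4 in both. The Nop56 peak (gene 67134, chr2:130274412-130279313, plus strand) went from 7397 bp in LIF-ESCs, 330 bp past the gene's end and into Idh3b, to 6455 bp in Myc-ESCs, where it ended in exon 12. Both Nop56 peaks held the intronic snoRNAs Snord110 and Snord57. The Nop58 peak (gene 55989, chr1:59685006-59711510, plus strand) measured 8982 bp in LIF-ESCs against 8109 bp in Myc-ESCs. Snord70 in intron 2 of Nop58 was covered in LIF-ESCs only, and Snord11 in intron 9 in neither culture. When peaks at most 1000 bp apart were joined, the Nop58 region reached 16837 bp in LIF-ESCs and stayed at 8109 bp in Myc-ESCs, a ratio of 0.482.

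**Figure D2:**
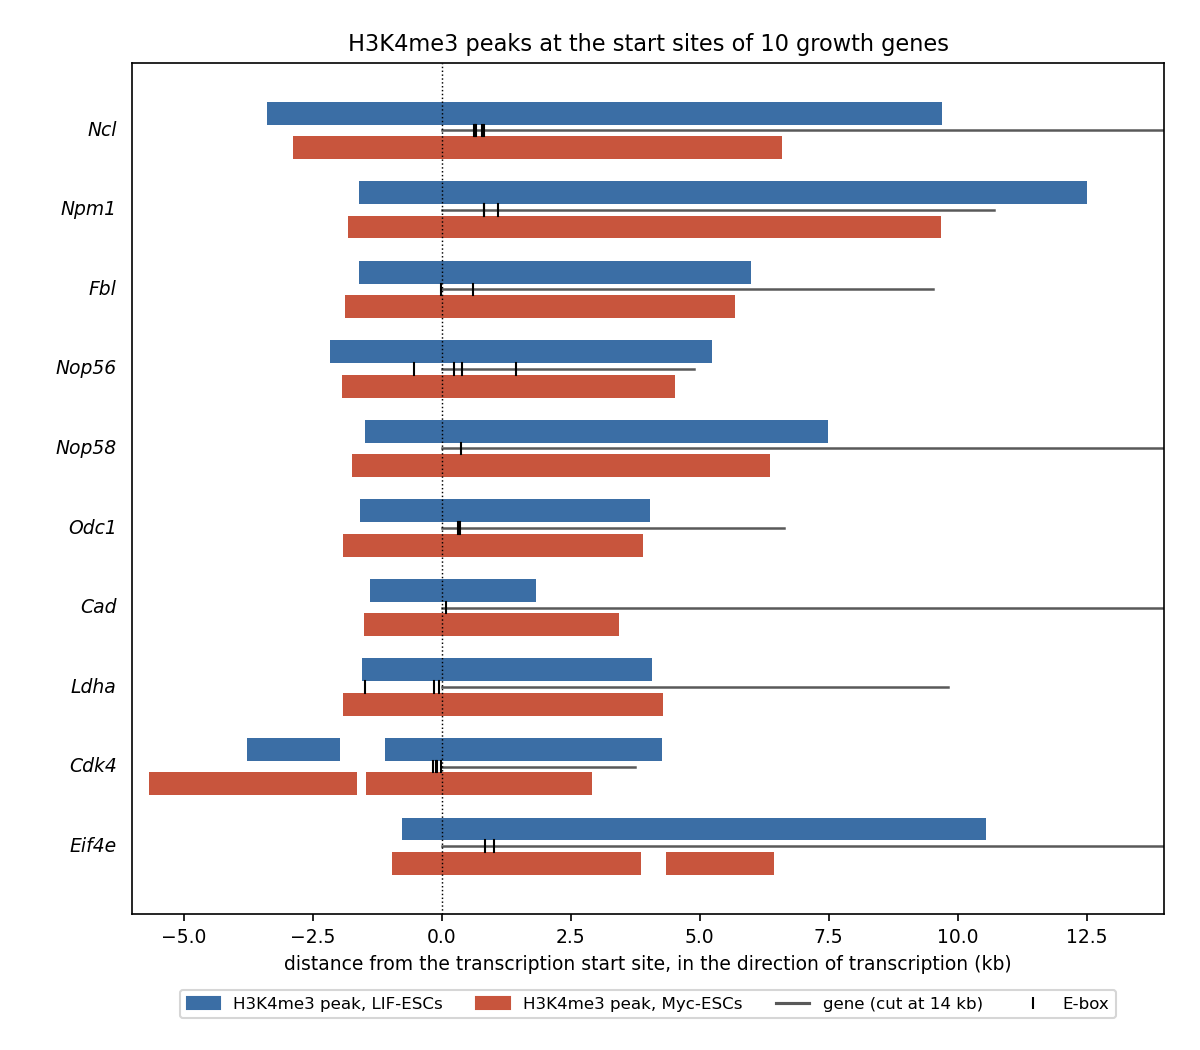
H3K4me3 peaks of LIF-ESCs (blue) and Myc-ESCs (red) by distance from the start site in kb, in the direction of transcription, with the gene as a grey line and E-boxes as black ticks. The upstream edges lie within 3391 bp of the start site at the peaks that cover it, while the downstream edges differ most between cultures at Eif4e, Ncl and Npm1.

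The 3 enzymes of metabolism had longer peaks in Myc-ESCs. Cad (gene 69719, chr5:31054780-31078479, plus strand), a fused enzyme for the opening steps of pyrimidine synthesis, had the highest ratio of the members, 1.53. Its peak measured 3219 bp in LIF-ESCs compared with 4925 bp in Myc-ESCs, a gain of 53.0%. In LIF-ESCs it was shorter than the peak of the median gene, and in Myc-ESCs it was longer than at 82.4% of genes. Its rank in the list went from 8966 to 2315. The gain was almost all inside the gene, where the far edge moved from 1838 bp (intron 2) to 3429 bp (intron 3) after the start site. The body of the neighbouring Atraid was also touched by the peak in both cultures.

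Ldha (lactate dehydrogenase A, gene 16828, chr7:46845804-46855627, plus strand) had 5613 bp of H3K4me3 in LIF-ESCs but 6198 bp in Myc-ESCs, a ratio of 1.10. Its edges moved outwards on both sides, by 362 bp upstream and 223 bp downstream. Odc1 (ornithine decarboxylase, gene 18263, chr12:17544873-17551502, plus strand), the entry enzyme of polyamine synthesis, had 5619 and 5819 bp, a ratio of 1.04. The upstream reach of the Odc1 peak went from 1587 to 1919 bp and its downstream reach from 4031 to 3899 bp. Divided by the median ratio of all genes, the Odc1 value was 0.994, so that its direction rests on that scaling.

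Cdk4 (gene 12567, chr10:127063535-127067288, plus strand), the cyclin D-dependent kinase of G1, had the shortest peak of the members in Myc-ESCs. It measured 5381 bp in LIF-ESCs, covering the whole gene and 521 bp beyond it into Tspan31, and 4392 bp in Myc-ESCs, where it ended in intron 7. Cdk4 was the single member with a second H3K4me3 peak in the window, upstream of the E-boxes shown above. The upstream peak had 1801 bp and a score of 371 in LIF-ESCs, compared with 4039 bp and a score of 563 in Myc-ESCs. It was thus longer in Myc-ESCs than in LIF-ESCs, whereas the peak over the start site was shorter there. Joined across gaps of up to 1000 bp, the H3K4me3 region at Cdk4 was 14540 bp in LIF-ESCs against 8593 bp in Myc-ESCs. The LIF-ESC region took in further peaks outside the window, whereas that of Myc-ESCs held only the peaks named here. These joined lengths therefore compare unlike sets of peaks.

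Eif4e (gene 13684, chr3:138526191-138559696, plus strand) encodes the protein that binds the cap of mRNAs to start translation, and its peak as deposited had the lowest ratio of the members. Its length was 11318 bp in LIF-ESCs compared with 4831 bp in Myc-ESCs, a ratio of 0.427, and 0.909% of genes had a lower ratio. Its rank in the list went from 261 to 2495. A second Myc-ESC peak of 2093 bp, with a score of 53.9, lay farther inside the LIF-ESC domain, from 4354 bp after the start site. Joined with it, the Myc-ESC region was 7410 bp long and the ratio 0.655, which was higher than the ratios of the joined regions at Nop58 (0.482) and Cdk4 (0.591). At Nop58 and Cdk4 the joined LIF-ESC regions also took in peaks outside the window. Both Myc-ESC peaks together covered 59.5% of the LIF-ESC domain.

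Eif4e has a pair of curated start sites 1077 bp apart, and its peak sat differently around each. From the upstream site the peak extended only 774 bp outwards in LIF-ESCs or 963 bp in Myc-ESCs, the smallest values of all members. From the downstream site it extended 1851 and 2040 bp. The primary transcript of Mir1956 starts 230 bp after the upstream site, inside the peaks of both cultures. The base composition of these promoters also differed. The ratio of observed to expected CpG was 0.474 at the upstream site and 1.03 at the downstream site, against a median of 0.758 over genes with H3K4me3 in both cultures. At the main start sites of the other members with a promoter entry it ran from 0.702 (Cdk4) to 1.10 (Nop58), and at the downstream start site of Ldha it was 0.540.

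The edges on either side of the start site were compared separately. Upstream of the start site the members' peaks reached a median of 1565.5 bp in LIF-ESCs against 1843 bp in Myc-ESCs, and 8 of 10 reached farther in Myc-ESCs. Downstream the medians were 5611.5 and 4407.5 bp, and 8 of 10 reached less far in Myc-ESCs. For the 14876 genes with a peak over the start site in both cultures, the medians were 1375 and 1490 bp upstream and 1918 and 2002 bp downstream. Upstream the members thus moved with all genes, of which 65.9% reached farther in Myc-ESCs. Downstream they moved the other way from the 58.1% of genes that reached farther. The members' downstream reach in LIF-ESCs was well above that of all genes, and long peaks were in general shorter in Myc-ESCs. Reach was not compared among genes of like length, so the downstream difference cannot be read as particular to the members. The sides differed between members. Ldha gained 362 bp upstream and 223 bp downstream, and at Fbl a longer upstream reach (1595 and 1879 bp) stood against a shorter downstream reach (5992 and 5690 bp).

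Long H3K4me3 peaks were in general shorter in Myc-ESCs, and several members differed between the cultures as genes of like length did. At least 10 kb were reached at 501 genes of LIF-ESCs and at 195 of Myc-ESCs, and among the members at Npm1, Ncl and Eif4e in LIF-ESCs and at Npm1 alone in Myc-ESCs. To compare like with like, genes were grouped by the mean of both lengths. The median ratio was 0.995 at 4 to 6 kb, 0.916 at 6 to 8 kb, 0.825 at 8 to 10 kb and 0.726 from 10 kb on. Ncl (0.724) and Npm1 (0.815) stood near the middle of their class, with 48.3% and 55.7% of its genes lower. Fbl, Nop56, Nop58 and Odc1 stood above 41.9% to 69.3% of the genes of their classes. Cad and Ldha stood high, above 95.5% and 82.9% of the genes of their class, and Cdk4 and Eif4e stood low, above 14.9% and 7.69%. In these classes the 5 nucleolar genes and Odc1 lay in the interquartile range. With classes set by LIF-ESC length alone, 5 of the 10 members did, and Fbl stood above 78.6% of its class.

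**Figure D3:**
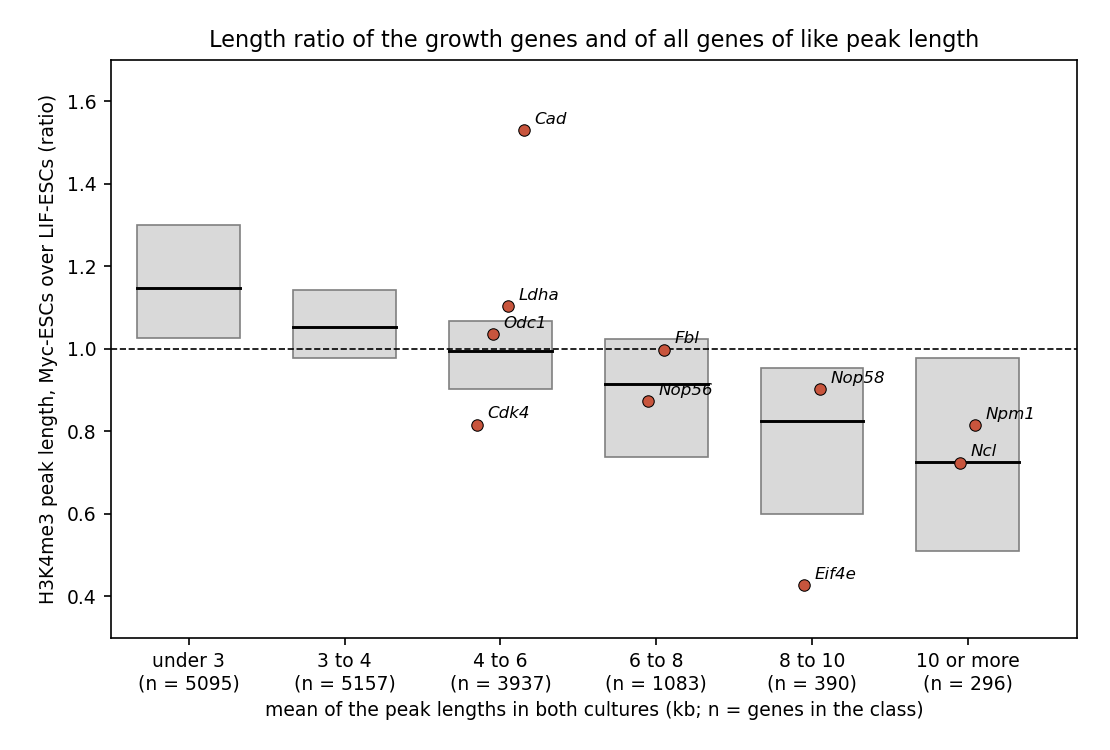
Ratio of H3K4me3 peak length in Myc-ESCs over LIF-ESCs for the 10 growth genes (red points) beside all genes of the same length class (kb), with the class median as a black line and their interquartile range as a grey box. The class medians decline from 1.15 under 3 kb to 0.726 from 10 kb on, and Cad, Ldha, Cdk4 and Eif4e lie outside the boxes.

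None of the 10 growth genes carried a Suz12 or H3K27me3 peak at the start site in either culture. Among genes with H3K4me3, Suz12 stood at 17.8% in LIF-ESCs against 22.3% in Myc-ESCs, and H3K27me3 at 5.38% and 15.9%. A count of 0 of 10 allows a share of up to 30%, so that the absence at the members is not distinguishable from those shares. The count remained 0 in windows of 1000 and 5000 bp. No Polycomb peak lay inside any of the members' H3K4me3 peaks, long as these were.

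The nearest Polycomb peaks were at least 13920 bp away, over all 40 distances from 10 genes to 4 lists. Only Cdk4, Npm1 and Nop56 had one within 20 kb. The shortest distance was that from Cdk4 to an H3K27me3 peak of 167 bp, with a score of 58.1, upstream of the gene in LIF-ESCs. In Myc-ESCs the nearest H3K27me3 peak lay on the other side, 17164 bp downstream. Downstream of Cdk4, at 15934 bp, a Suz12 peak in Myc-ESCs measured 2202 bp with a score of 1473, where LIF-ESCs had a peak of 201 bp with a score of 63.9. At Cad the Suz12 peak some 37 kb downstream was likewise larger in Myc-ESCs, with 1777 bp and a score of 2077 against 869 bp and a score of 400. The score also depends on depth, which is unknown, and its part in these differences was not tested.

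For H3K27me3 the median distance from the members was 300919 bp under LIF and 196387 bp under OHT, against 429205 and 129031 bp for genes with H3K4me3 in both cultures. For Suz12 the members' medians were 106352 and 133223 bp, against 124265 and 90393.5 bp. The members went both ways. In LIF-ESCs 7 of 10 were nearer to H3K27me3 and 6 of 10 nearer to Suz12 than the median gene, and in Myc-ESCs the same 4 (Npm1, Nop56, Cad and Cdk4) were nearer to either mark. Nop58 showed the widest shifts, in opposite directions. Its nearest Suz12 peak was 91980 bp away in LIF-ESCs but 1908772 bp away in Myc-ESCs, and its nearest H3K27me3 peak 3016915 and 173572 bp away. The LIF-ESC peaks behind these values were small, 228 bp with a score of 74 for Suz12 and 164 bp with a score of 61.4 for H3K27me3. Scores in the lists start at 50. Nearest distances also depend on the number of peaks, and the H3K27me3 lists held 3120 and 16717. The part of either in these shifts was not tested.

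**Figure D4:**
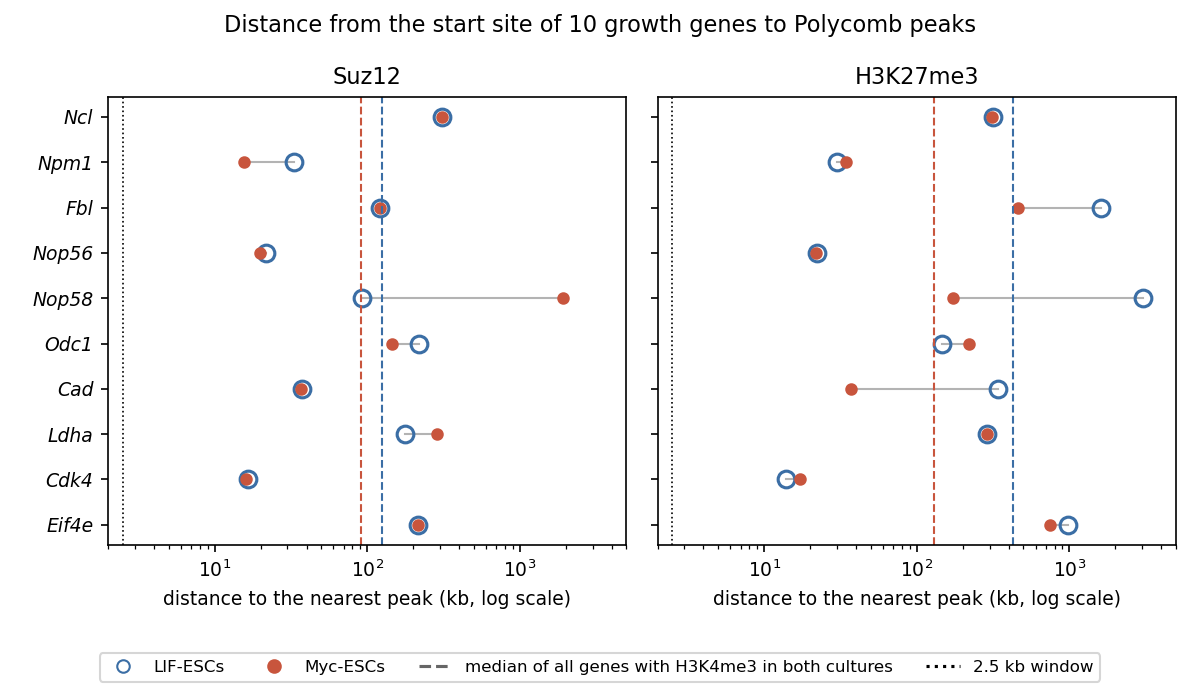
Distance in kb (log scale) from the start site of each growth gene to the nearest Suz12 peak (left) and H3K27me3 peak (right) in LIF-ESCs (open blue) and Myc-ESCs (filled red), with the median of all genes with H3K4me3 in both cultures as dashed lines. All points lie beyond the 2500 bp window (dotted), the nearest at 13920 bp (Cdk4).

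The pathways around the members were examined with 6 lists holding 105 other genes. All 105 had H3K4me3 at the start site in both cultures, and the peak was shorter in Myc-ESCs at 76 of them (72.4%), with a median ratio of 0.958. Over all genes with a peak in both cultures, 38.1% were shorter and the median ratio was 1.04. That share rises with length, to 57.3% for LIF-ESC peaks of 4000 to 6000 bp and 79.3% for those of 6000 to 8000 bp. In the same classes set by the mean of both lengths it was 51.9% and 69.9%. The lists were not compared with genes of like length. The median length was 5167 bp in LIF-ESCs against 4635 bp in Myc-ESCs, between those of all genes and those of the 10 members. CACGTG lay within 2500 bp of the start site at 73 of the 105 (69.5%), against 54.4% of genes with H3K4me3 in both cultures.

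Among 24 other factors of rRNA processing and snoRNPs, the median was 5581.5 bp in LIF-ESCs compared with 4939 bp in Myc-ESCs, and 21 were shorter in Myc-ESCs. They ranged in LIF-ESCs from Polr1b, a subunit of RNA polymerase I (2881 bp), to Wdr43, a factor of small subunit assembly (11798 bp). The 17 genes of translation initiation had the longest peaks of the 6 lists, with medians of 8452 and 6583 bp, and 13 were shorter in Myc-ESCs. Eif4ebp1, whose product binds and blocks Eif4e, had 16705 bp in LIF-ESCs against 15348 bp in Myc-ESCs, a ratio of 0.919 beside the 0.427 of Eif4e. The shortest was Eif4e3, a relative of Eif4e, with 2139 and 2320 bp.

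In the lists of glycolysis and nucleotide synthesis most genes had shorter peaks in Myc-ESCs, unlike Ldha and Cad. In glycolysis 12 of 18 genes were shorter in Myc-ESCs, with medians of 6156 and 4901.5 bp. Pkm, the pyruvate kinase, was longest with 13611 and 12718 bp, and Ldhb, the other main lactate dehydrogenase subunit, was shortest with 2859 and 3525 bp. In nucleotide synthesis 14 of 19 were shorter, with medians of 4096 and 3878 bp. Ppat and Paics, enzymes of purine synthesis with a shared divergent promoter, had a common peak of 14234 bp in LIF-ESCs compared with 9210 bp in Myc-ESCs, and Ctps2 was shortest with 2666 and 2462 bp. In polyamine metabolism, the pathway of Odc1, 6 of 11 were shorter and 5 longer, with medians of 4226 and 4244 bp and a median ratio of 0.993. Amd1, which supplies the aminopropyl donor, had 11220 and 7994 bp, and Sat1, which breaks polyamines down, 2946 and 2901 bp.

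Of 16 genes of the G1 to S transition, 10 had shorter peaks in Myc-ESCs, with medians of 5521 and 4740.5 bp. E2f2, an S phase transcription factor, went from 11398 to 3209 bp, a ratio of 0.282 that was lower than that of Eif4e. Cdk2 was shortest in LIF-ESCs and had 3646 and 3603 bp.

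Polycomb marks were present at a few genes of these pathways. Suz12 stood at 5 of the 105 genes in LIF-ESCs against 8 in Myc-ESCs, and H3K27me3 at 1 and 4. Among all genes with H3K4me3 in the same culture, the shares were 17.8% and 22.3% for Suz12 and 5.38% and 15.9% for H3K27me3. The 8 genes were Ccnd1, Ccnd2, Cdk6, Eif4e3, Impdh1, Ldhb, Nop14 and Smox. They include Ccnd1 and Ccnd2, whose cyclins activate Cdk4, the related kinase Cdk6, and the relatives of Ldha and Eif4e, Ldhb and Eif4e3. Ccnd2 had the longest Suz12 peaks, 2635 bp in LIF-ESCs against 2693 bp in Myc-ESCs, and its H3K4me3 peak went from 4842 to 8217 bp. At Cdk6 a Suz12 peak of 268 bp in LIF-ESCs compared with 742 bp in Myc-ESCs stood beside H3K4me3 of 6357 and 6776 bp. At Ldhb Suz12 was found in Myc-ESCs alone, over 213 bp.

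**Figure D5:**
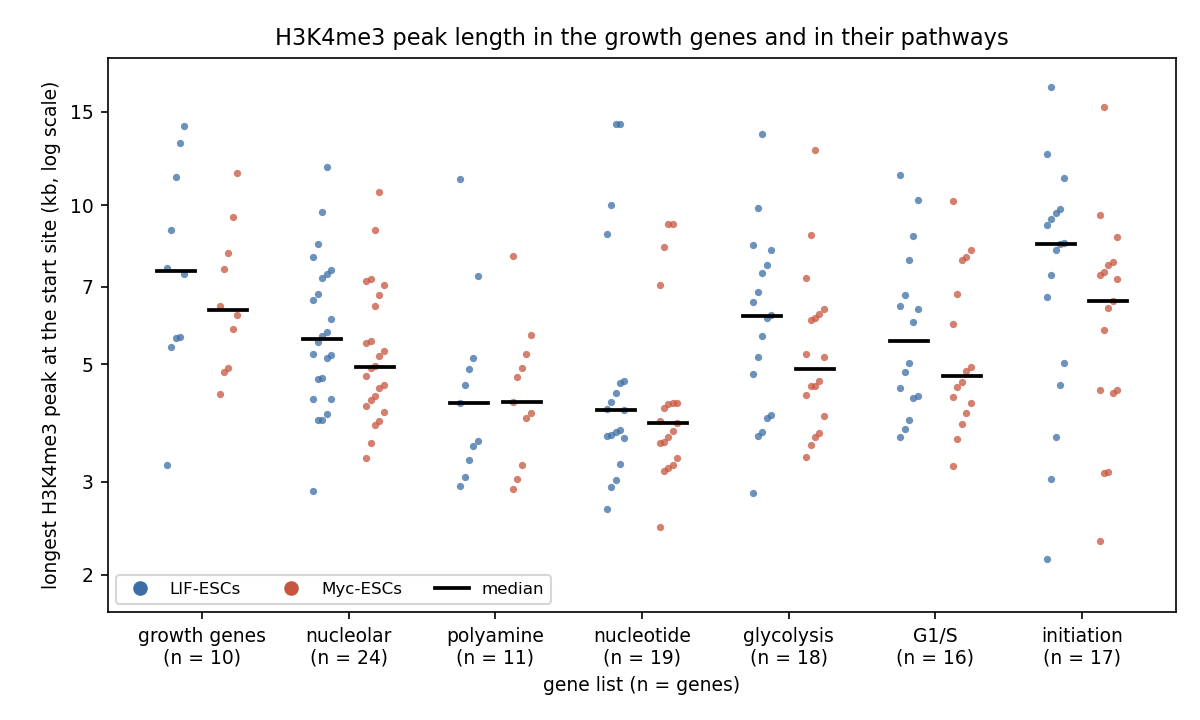
Longest H3K4me3 peak at the start site (kb, log scale) of each gene of the 10 growth genes and of 6 lists of their pathways, in LIF-ESCs (blue) and Myc-ESCs (red), with the median of each list as a black line. The medians of the growth genes are 7492.5 and 6326.5 bp, and those of the initiation list 8452 and 6583 bp.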

How the data were processed

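Per the submitters' processing notes and the methods of the study, the authors aligned reads to GRCm38 with Bowtie2 2.2.3, kept uniquely placed reads and ran MACS 1.4.2 with its defaults. They deposited 6 lists with the position and a score per peak, which is a p-value on a log scale and grows with depth. Whether libraries were pooled is not given in the sources used here. The length of a called peak also depends on depth.

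Start sites came from 45756 curated RefSeq transcripts (GRCm38.p6) on 21 chromosomes. A peak belonged to a gene when it shared at least 1 bp with the window of 2500 bp each way from a start site. Intervals were compared in Python 3.11.15 with numpy 2.4.6 and pandas 2.3.3, and 0 of 3000 simulated windows differed from a double loop. Sequences were read with pysam 0.24.0 from the reference genome and, for promoters of 8 members, from the RefSeq table of the same build. Npm1 and Fbl have no entry in it. Figures were drawn with matplotlib 3.10.9. The upper limit for a count of 0 is 3 counts of the total and covers counting error only.

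The members, pathway lists and markers were chosen with earlier results of these data known. Named from the pathway lists were genes with a Polycomb peak in either culture and those with the longest or shortest LIF-ESC peak of a list. Other genes were named where they start or lie inside a member's peak. Alternatives were windows of 1000 and 5000 bp, a score of at least 100, lists of equal length, the peak covering the start site, bases covered within the window, the start site shared by most transcripts, the ratio divided by that of all genes, and shorter E-box windows. Joining peaks across gaps of up to 1000 bp was chosen after seeing the data. Gene expression and Myc binding were not analysed here.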

Additional observations from a re-analysis of the deposited data

How the results depend on the processing

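Of 92 values recomputed under an alternative, 86 kept their direction and stayed close to the reported value, 5 moved and 1 reversed. Many of the 86 could not move. Every member's longest peak covered the start site with a score of 3100. The 1000 bp window, the score limit, the lists of equal length, the covering peak and the shared start site therefore returned the same member lengths. The count of 86 is thus no measure of how firm the length results are. With the bases within the 5001 bp window in place of the whole peak, the members' median length was 4118 bp for LIF-ESCs and 4425.5 bp for Myc-ESCs, their median percentile among genes in LIF-ESCs was 77.1, the median ratio turned to 1.06 and 7 members were longer in Myc-ESCs. Only Nop56 was shorter, and Ncl and Ldha filled the window in both cultures. Over all genes that setting gave a median ratio of 1.04, with 31.8% shorter in Myc-ESCs. That window ends 2500 bp from the start site and so leaves out most of what differed. An E-box was found in 3 members when the search was limited to the promoter table. With a window of 5000 bp the longest LIF-ESC peak at Cad was another one, of 4049 bp, which gave a ratio of 1.22. The LIF-ESC peak over the start site of Cad remained 3219 bp. Leaving out a replicate was not possible, since each culture and antibody has a single list, and for the same reason no depth, batch or library could be set beside any difference between the cultures. No paired analysis was possible because the result comes from no test.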
